A study of Mus musculus with 5 samples.

Results

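The replication-dependent histone genes supply the core histones H2A, H2B, H3 and H4 and the linker histone H1 for new chromatin. They were taken here as every gene symbol starting Hist1h, Hist2h, Hist3h or Hist4h with at least 50 UMIs (unique molecular identifiers, each marking 1 captured mRNA molecule) over 5 single-cell libraries. Of 70 such symbols among 55450 genes, 64 met this minimum, and they held 1881760 UMIs. The members with the fewest UMIs were Hist1h1t with 58 and Hist1h2aj with 62. The symbols just outside were Hist2h2aa2 with 9 UMIs, Hist1h2bq with 6, Hist1h4m with 4 and Hist1h2aa with 2, and Hist2h3c1 and Hist1h2ba with no UMI. No measured difference between groups of cells entered this choice. The annotation lists 61 of the 64 as protein coding, Hist1h2al and Hist3h2bb-ps as processed pseudogenes and Hist1h2aj as an unprocessed pseudogene.

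The cells were bone marrow progenitors of wild-type Balb/C mice aged 8 to 12 weeks, enriched for c-Kit and sorted as lineage-negative, c-Kit+ cells by further surface markers, and profiled with the droplet-based 10x 3′ assay. GMP (granulocyte-monocyte progenitors, CD34+ and CD16/32 high, without Sca-1) were sequenced as 3 biological replicates. CMP (common myeloid progenitors, CD34+ and CD16/32 low, without Sca-1) and LMPP (lymphoid-primed multipotent progenitors, with Sca-1, CD34 and Flt3) were sequenced as 1 library each. No group carried a mutation or treatment, and the number of mice per library was not given in the sources used here.

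After filtering, 8429, 9016 and 7334 cells were kept for GMP replicates 1, 2 and 3 (GMP1 to GMP3 below), against 6880 for CMP and 7511 for LMPP. These libraries summed to between 81557370 and 120027601 UMIs. Levels are CPM, the UMIs of a gene per 1000000 UMIs of the cells summed. A UMI is counted once per molecule at its 3′ end, so no length scaling was applied. The gate genes followed the labels. Fcgr3 averaged 41.2 ± 5.20 CPM in GMP (SD, n = 3), against 10.3 CPM in CMP and 2.95 CPM in LMPP, and Flt3 averaged 4.45 ± 0.384 CPM in GMP, against 48.6 CPM in CMP and 128 CPM in LMPP. Between 13 and 33 cell barcodes were shared by any pair of libraries, at most 0.447% of the smaller one.

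Replication-dependent histone genes are transcribed mainly while DNA is copied. Their mRNAs classically end in a conserved stem-loop that the stem-loop binding protein SLBP recognises, without the poly(A) tail of other mRNAs, and they are destroyed when S phase ends. Some of these genes also make polyadenylated mRNA, as described for differentiated and non-dividing cells. The assay captures RNA through poly(A), so the values below count molecules that oligo-dT could capture and not total histone mRNA.

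The genes lay close together. On chromosome 13 there were 52 members, 22 of them in a block of 328 kb at chr13:21715763-22043676 and 29 in a block of 233 kb at chr13:23531050-23764406 (mm10 build). Chromosome 3 held 8 members, chromosome 11 held 3 and chromosome 6 held 1. A perfect inverted repeat of the histone stem-loop form was present in annotated transcripts of 42 of the 64 members, against 74 of all 55450 genes (0.13%). What differed between members was how much annotated transcript followed this site. In 22 members at least 100 bases followed it, in 20 fewer than 100 bases did, and 22 had no match, which says only that these letters were not in the annotated transcript. The sites of 7 members that the results turn on are given below in DNA letters, 5′ to 3′, with the stem-loop in capitals.
Hist1h2ap: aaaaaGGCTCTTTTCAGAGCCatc
Hist1h2ae: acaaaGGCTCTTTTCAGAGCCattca
Hist1h3c: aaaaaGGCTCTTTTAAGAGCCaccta
Hist1h4d: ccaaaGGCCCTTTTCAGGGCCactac
Hist1h4i: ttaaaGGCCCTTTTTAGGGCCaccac
Hist1h2ac: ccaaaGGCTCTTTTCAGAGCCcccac
Hist1h1c: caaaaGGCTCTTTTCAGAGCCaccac
The Hist1h2ap transcript ran only 3 bases past its stem-loop (chr13:21833026-21833049, minus strand). The Hist1h3c transcript ran 74 bases past it (chr13:23745042-23745067, minus strand), and the Hist1h2ae transcript 151 bases (chr13:23570663-23570688, minus strand). The transcripts of Hist1h4i (chr13:22040961-22040986, minus strand), Hist1h4d (chr13:23581945-23581970, plus strand), Hist1h1c (chr13:23739507-23739532, plus strand) and Hist1h2ac (chr13:23683472-23683497, minus strand) went on for 330, 770, 840 and 2010 bases. Hist1h2bc, a gene of the H2B class, had no match in its annotated transcript of 2 exons and 1156 bases (chr13:23684199-23692908, plus strand).

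The promoters carried the short elements known from histone genes. In RefSeq (GRCm38.p6) 56 members had 57 promoter entries, and both strands of the 250 bases before the start were searched. The CCAAT box (CCAAT) was present in 48 of the 57, among them 6 of 6 for H1, 16 of 16 for H2A, 15 of 15 for H2B, 8 of 9 for H3 and 3 of 11 for H4, against 33.85% of all 32851 promoter windows of that length. The H1 box (AAACACA) was present in 5 of 6 H1 promoters and in 7 of the 57, against 6.25% of all windows. The octamer (ATTTGCAT) was present in 6 of 16 H2A and 6 of 15 H2B promoters, against 1.6%. A TATA box (TATAAA) was present in 26 of the 57, against 12.37%. The 150 bases before the start of Hist1h1b, the highest H1 gene, and of Hist1h2bg, an H2B gene that lies head to head with Hist1h2ae, show both kinds of arrangement, with these elements in capitals (CCAAT on the minus strand reads ATTGG).
Hist1h1b: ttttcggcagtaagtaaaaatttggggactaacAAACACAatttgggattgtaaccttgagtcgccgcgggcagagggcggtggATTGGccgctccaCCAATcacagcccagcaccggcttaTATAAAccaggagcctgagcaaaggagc
Hist1h2bg: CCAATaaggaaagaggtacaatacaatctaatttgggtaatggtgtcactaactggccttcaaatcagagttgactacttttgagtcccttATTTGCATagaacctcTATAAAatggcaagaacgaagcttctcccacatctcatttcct
The Hist1h1b sequence is chr13:21780626-21780775 on the minus strand and the Hist1h2bg sequence is chr13:23571250-23571399 on the plus strand. A match is a description of the letters and not evidence that a factor binds there.

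Histone mRNA made up 0.304%, 0.358% and 0.348% of all UMIs in GMP1, GMP2 and GMP3, against 0.251% in CMP and 0.411% in LMPP. The 3 GMP libraries lay between the CMP library and the LMPP library. H2A genes held 51.0% of histone UMIs, H1 genes 27.6%, H2B genes 7.96%, H4 genes 6.82% and H3 genes 6.63%, although the core histones are needed in equal numbers in a nucleosome. Summed H2A mRNA had 1461, 1664 and 1912 CPM in the GMP libraries, against 1199 CPM in CMP and 2307 CPM in LMPP. Summed H1 mRNA had 904, 1052 and 822 CPM in GMP, against 765 CPM in CMP and 1109 CPM in LMPP. For both classes, the GMP libraries lay above CMP and below LMPP by total UMIs. Summed H2B mRNA had 261, 313 and 276 CPM in GMP, against 216 CPM in CMP and 247 CPM in LMPP, so all GMP libraries were above both. Summed H3 mRNA had 201, 272 and 224 CPM in GMP, against 154 CPM in CMP and 237 CPM in LMPP. Summed H4 mRNA had 212, 282 and 242 CPM in GMP, against 177 CPM in CMP and 208 CPM in LMPP. All CPM here are scaled by total UMIs. The tests below use TMM scaling, under which the median gene differs by -0.10 between GMP and LMPP, against -0.72 by total UMIs, so an order against LMPP given in CPM can turn with TMM. In such sums more cells with a transcript and more transcripts per cell cannot be told apart.

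**Figure D1:**
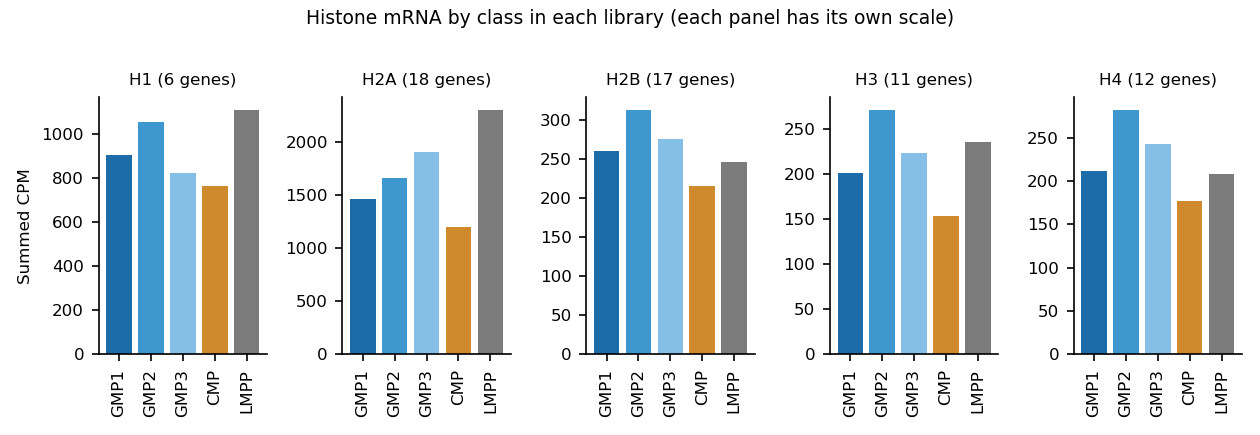
Summed CPM of each histone class (1 panel per class, each with its own scale from 0) in the 3 GMP libraries, the CMP library and the LMPP library; each bar is 1 library, scaled by total UMIs. On this scale H1 and H2A were highest in LMPP (1109 and 2307 CPM), whereas H2B was higher in the GMP libraries (261 to 313 CPM) than in CMP and LMPP.

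A few genes carried most of each of the H1, H2A and H4 totals. Hist1h2ap alone held 63.0% of H2A UMIs and 32.2% of all histone UMIs, and Hist1h1b held 47.3% of H1 UMIs. On the same measure Hist1h4d held 40.6% of the H4 total, Hist1h3e 27.6% of the H3 total and Hist1h2bc 16.9% of the H2B total. Reads of near-identical copies limit this ranking. In 30 of the 64 members more than 50% of the 50-base words in the last 300 bases of the transcript also occurred in another gene, and this was 100% for Hist1h2ap, Hist1h1e, Hist1h3e, Hist1h3f and Hist2h2aa1. How reads shared between genes were assigned is not given in the sources used here. For Hist1h1e the sharing comes from the annotated transcript of Hist1h2be, which overlaps it on the same strand.

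Among the linker histone genes, Hist1h1b (histone H1.5) had 466, 595 and 415 CPM in GMP, against 269 CPM in CMP and 453 CPM in LMPP. Hist1h1e averaged 196 ± 13.2 CPM in GMP (SD, n = 3), against 190 CPM in CMP and 275 CPM in LMPP. Hist1h1a averaged 99.7 ± 13.4 CPM in GMP, against 98.6 CPM in CMP and 156 CPM in LMPP, and Hist1h1d averaged 59.1 ± 6.93 CPM, against 67.5 CPM in CMP and 111 CPM in LMPP. Hist1h1c (histone H1.2) had 79.1, 73.9 and 81.6 CPM in GMP, against 140 CPM in CMP and 114 CPM in LMPP. By total UMIs Hist1h1c was thus below both other libraries in every GMP library, although not below LMPP with the TMM scaling used in the tests below.

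Among the H2A genes, Hist1h2ap had 909, 938 and 1261 CPM in GMP, against 774 CPM in CMP and 1503 CPM in LMPP. Hist1h2ae averaged 365 ± 26.8 CPM in GMP, against 251 CPM in CMP and 566 CPM in LMPP. Hist1h2ac had 62.5, 127 and 118 CPM in GMP, against 60.4 CPM in CMP and 76.6 CPM in LMPP, so that GMP1 stood 2.03-fold below the highest GMP library. Similar gaps among the GMP libraries were seen for Hist1h2ab (2.50-fold), Hist1h3c (2.06-fold) and Hist1h4d (1.98-fold), each lowest in GMP1. Hist1h2an differed as much (2.20-fold) but was lowest in GMP3, with 10.5, 9.01 and 4.77 CPM in GMP1, GMP2 and GMP3. Hist2h2ac averaged 63.6 ± 16.7 CPM in GMP, against 32.5 CPM in CMP and 44.1 CPM in LMPP, and Hist2h2aa1 averaged 39.4 ± 4.0 CPM, against 24.1 CPM in CMP and 41.9 CPM in LMPP. The lower H2A members averaged in GMP 14.7 CPM for Hist1h2al, 13.2 CPM for Hist1h2ak, 10.5 CPM for Hist1h2ab, 8.09 CPM for Hist1h2an and 6.98 CPM for Hist3h2a.

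No H2B gene dominated its class. Hist1h2bc had 43.1, 38.1 and 46.8 CPM in GMP, against 65.6 CPM in CMP and 27.5 CPM in LMPP. All GMP libraries lay below CMP and above LMPP. Mean CPM in GMP was 29.3 for Hist1h2bg, 28.5 for Hist2h2bb, 27.4 for Hist1h2bm, 23.5 for Hist1h2br, 23.4 for Hist1h2bj, 22.2 for Hist1h2be and 21.7 for Hist1h2bb. It was 18.3 for Hist1h2bh, 13.3 for Hist1h2bl, 9.60 for Hist1h2bn, 8.07 for Hist2h2be and 6.41 for Hist1h2bp. Hist3h2ba was rare in GMP at 0.398 ± 0.0419 CPM, against 1.16 CPM in CMP and 3.92 CPM in LMPP.

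Among the H3 genes, Hist1h3e averaged 67.2 ± 6.24 CPM in GMP, against 43.0 CPM in CMP and 54.9 CPM in LMPP. Hist1h3c had 39.7, 81.7 and 56.6 CPM in GMP, against 26.9 CPM in CMP and 50.7 CPM in LMPP, so the GMP libraries lay on both sides of LMPP. Hist1h3d averaged 34.0 CPM in GMP, Hist1h3a 24.2 CPM, Hist1h3i 13.6 CPM, Hist1h3f 11.2 CPM, Hist1h3b 7.51 CPM and Hist2h3b 6.63 CPM. Among the H4 genes, Hist1h4d had 68.3, 136 and 104 CPM in GMP, against 68.5 CPM in CMP and 79.1 CPM in LMPP. Hist1h4i had 66.9, 55.6 and 56.0 CPM in GMP, against 46.4 CPM in CMP and 32.6 CPM in LMPP. Every GMP library was above both other libraries for Hist1h4i. Hist1h4h averaged 29.6 CPM in GMP, Hist4h4 22.2 CPM, Hist1h4a 12.7 CPM and Hist2h4 5.94 CPM.

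Within GMP, cells were grouped by cell-cycle genes that hold no histone, after thinning each cell to 5000 UMIs. The S list holds DNA replication genes (Mcm and replication fork genes). The G2M list holds genes of G2 and mitosis, among them Hmgb2, Top2a, Cdk1 and Plk1, and does not mark mitotic cells alone. Cells at or above the 75th percentile for the S list but not for the G2M list are called S-list-high, and the converse G2M-list-high. Cells at or below the median of both lists are called both-lists-low. These are ranges of a score and not sharply separated phases: of 22992 GMP cells, 1806 lay at or 1 UMI below the S cut and 821 at or 1 UMI below the G2M cut. The same cuts were applied to CMP and LMPP. Shares are of the cells with at least 5000 UMIs. S-list-high cells made up 20.9%, 23.7% and 24.8% of GMP1, GMP2 and GMP3, against 23.0% of CMP and 19.65% of LMPP. G2M-list-high cells made up 20.03%, 25.7% and 22.6% of the GMP libraries, against 14.0% of CMP and 15.3% of LMPP. Both-lists-low cells made up 28.7%, 20.4% and 22.9%, against 47.5% of CMP and 46.6% of LMPP.

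Most histone genes were higher in S-list-high than in both-lists-low GMP cells, and 4 genes were lower. All members together had 2950, 3579 and 3475 CPM in S-list-high cells of GMP1, GMP2 and GMP3, against 1879, 1950 and 1840 CPM in both-lists-low cells. The edgeR quasi-likelihood test with library as a block, adjusted over all genes by Benjamini-Hochberg at 0.05, called 41 of 57 members tested higher, where 17.0% of all genes were called higher. It called 4 lower, where 15.1% of all genes were lower, and 12 did not pass. The other 7 members had too few UMIs to be tested. The median log2 difference was 0.68. By class, 4 of the H1 genes were higher and 1 lower, for H2A 11 and 1, for H2B 12 and 1, for H3 8 higher, and for H4 6 and 1. Without the library block edgeR called 18 higher and 2 lower. Counts without the block and counts with DESeq2, here and below, come without the share over all genes, so whether all genes lost calls alike is not shown.

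Hist1h3b had 6.55, 8.80 and 9.88 CPM in S-list-high cells of GMP1, GMP2 and GMP3, against 2.05, 3.05 and 2.29 CPM in both-lists-low cells, a log2 difference of 1.69 (SE 0.12, edgeR adjusted p = 3.89e-16). Hist1h1b had 519, 678 and 483 CPM in S-list-high cells, against 191, 221 and 131 CPM in both-lists-low cells (log2 difference 1.56, SE 0.05, edgeR adjusted p = 2.55e-30). The groups did not overlap for either gene. Of the H2A genes, Hist1h2af rose by 1.67, Hist1h2an by 1.46 and Hist1h2ai by 1.45 on the log2 scale. Hist1h2ap had 868, 935 and 1275 CPM in S-list-high cells, against 566, 503 and 626 CPM in both-lists-low cells. The highest members that did not pass were Hist1h3a with a log2 difference of 0.10 (edgeR adjusted p = 0.175, and 0.0190 when libraries were scaled by total UMIs), Hist1h2bg with 0.04 and Hist4h4 with -0.01.

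The genes that were lower in S-list-high cells came from 4 different classes. Hist1h2bc had 30.6, 29.8 and 35.2 CPM in S-list-high cells of GMP1, GMP2 and GMP3, against 57.4, 58.0 and 69.8 CPM in both-lists-low cells. It fell by 1.04 on the log2 scale (SE 0.04, edgeR adjusted p = 1.49e-25, and 0.000971 without the library block). Hist1h4i had 49.9, 49.5 and 48.8 CPM in S-list-high cells, against 73.2, 61.0 and 63.8 CPM in both-lists-low cells, and fell by 0.50 (SE 0.05, edgeR adjusted p = 6.79e-13). For both genes every S-list-high value was below every both-lists-low value. Hist1h2ac had 47.5, 93.0 and 84.8 CPM in S-list-high cells, against 58.7, 115 and 111 CPM in both-lists-low cells. It fell by 0.41 in edgeR (adjusted p = 2.86e-12), and the call was lost without the block (adjusted p = 0.521). GMP1 was the lowest library in both groups. Hist1h1c had 66.6, 62.7 and 60.0 CPM in S-list-high cells, against 76.9, 65.1 and 79.2 CPM in both-lists-low cells, and fell by 0.31 in edgeR (adjusted p = 1.87e-07, and 0.155 without the block).

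Histone mRNA was higher still in G2M-list-high GMP cells. All members together had 3961, 4317 and 4363 CPM in G2M-list-high cells of GMP1, GMP2 and GMP3, and 6176, 6547 and 6746 CPM in the 2.29%, 3.08% and 2.86% of cells that were high in both lists. edgeR called 55 of 59 members tested higher against both-lists-low cells (20.8% of all genes) and 2 lower (19.0% of all genes), and 2 did not pass. The median log2 difference was 1.11. Without the library block 43 were higher and 1 was lower. By class, 5 H1 genes, 17 H2A genes, 15 H2B genes, 9 H3 genes and 9 H4 genes were higher. Hist1h3c had 60.6, 114 and 84.7 CPM in G2M-list-high cells, against 15.9, 25.8 and 17.5 CPM in both-lists-low cells (log2 difference 2.07, SE 0.05, edgeR adjusted p = 4.31e-22). Hist1h4d had 118, 200 and 164 CPM in G2M-list-high cells, against 28.6, 51.8 and 42.1 CPM in both-lists-low cells, a log2 difference of 1.93. The groups did not overlap for either gene. Hist1h2af rose by 2.37, Hist1h2ab by 2.08, Hist1h3b by 1.96 and Hist1h2ah by 1.96. The value of Hist1h2ah was 2.77 without GMP1.

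Hist1h2bc was lower in G2M-list-high cells too. It had 36.3, 31.1 and 38.2 CPM in G2M-list-high cells of GMP1, GMP2 and GMP3 and fell by 0.87 (SE 0.04, edgeR adjusted p = 7.31e-15) against both-lists-low cells. Hist1h4i had 66.1, 54.9 and 58.1 CPM in G2M-list-high cells. It fell by 0.20 in edgeR (adjusted p = 7.82e-05), a call lost without the block (adjusted p = 0.419) and when thinned UMIs were summed (adjusted p = 0.0902). Hist1h2ac and Hist1h1c, which were lower in S-list-high cells, were higher in G2M-list-high cells. Hist1h2ac had 82.4, 169 and 159 CPM there, a log2 difference of 0.47, and Hist1h1c had 95.4, 92.8 and 100 CPM, a log2 difference of 0.33 (edgeR adjusted p = 5.09e-08, and 0.0844 without the block). Hist1h3a (0.06) and Hist1h4j (0.39) did not pass.

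**Figure D2:**
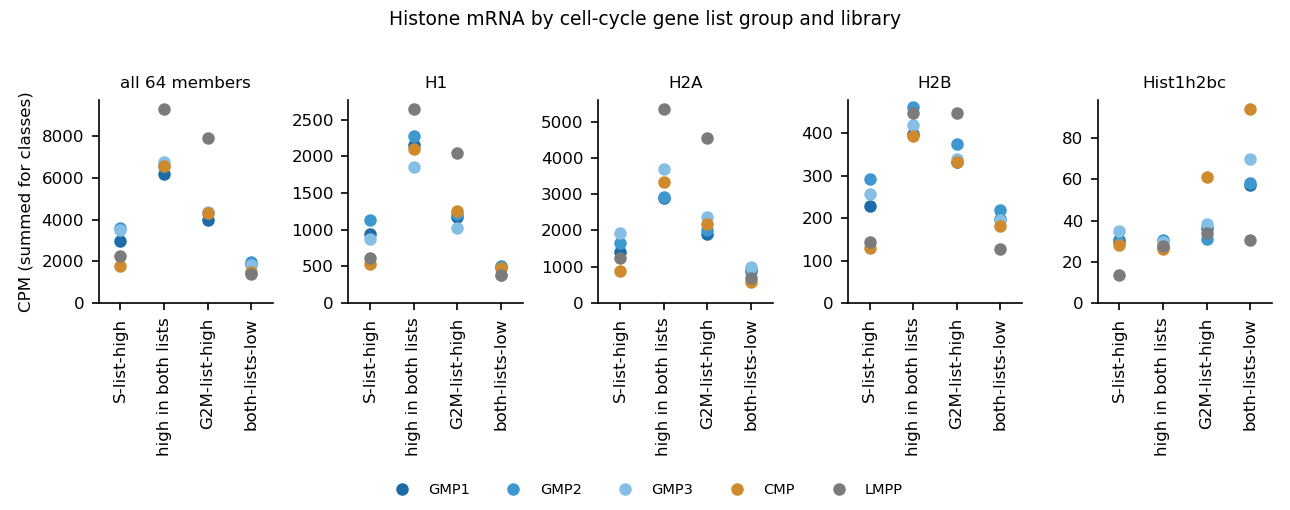
CPM in S-list-high cells, cells high in both lists, G2M-list-high cells and both-lists-low cells, for all 64 members summed, for the H1, H2A and H2B classes summed and for Hist1h2bc; each point is 1 library. The summed classes were highest in cells high in both lists, whereas Hist1h2bc was highest in both-lists-low cells in the GMP libraries (57.4 to 69.8 CPM) and in CMP (94.4 CPM).

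The direct readout per cell showed the same order. After thinning to 5000 UMIs the median cell had 9, 11 and 10 histone UMIs among S-list-high cells of GMP1, GMP2 and GMP3, against 7, 8 and 8 among both-lists-low cells. The median was 21, 23 and 23 in G2M-list-high cells and 32, 33 and 34 in cells high in both lists. S-list-high cells were uneven, with a 90th percentile of 35, 38 and 38 histone UMIs.

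Mki67, which encodes the proliferation antigen Ki-67, gave a coarser split of the GMP cells. With at least 1 Mki67 UMI after thinning, 36.6%, 43.8% and 41.8% of cells in GMP1, GMP2 and GMP3 were Mki67-positive. Histone mRNA summed to 3795, 4318 and 4262 CPM in Mki67-positive cells, against 2562, 2955 and 2829 CPM in Mki67-negative cells. edgeR with the library block called 56 of 62 members tested higher (13.5% of all genes) and 1 lower (13.9% of all genes), and 5 did not pass. The median log2 difference was 0.50. In Mki67-positive cells H1 genes summed to 1179 ± 132 CPM, against 728 ± 96.3 CPM in Mki67-negative cells (SD, n = 3 each), and H2A genes to 2041 ± 259 CPM, against 1406 ± 165 CPM. H2B genes summed to 328 ± 28.8 CPM, against 247 ± 22.1 CPM, H3 genes to 285 ± 40.9 CPM, against 191 ± 28.6 CPM, and H4 genes to 292 ± 42.8 CPM, against 209 ± 25.3 CPM.

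The number of members called depended on the library block and on the test, with no share over all genes to set beside these counts. Without the block edgeR called 4 members higher and 0 lower, with 1 lower at an unadjusted p under 0.05, whereas DESeq2 with the block called 43 higher and 1 lower. Hist1h2ab had 7.73, 18.7 and 16 CPM in Mki67-positive cells of GMP1, GMP2 and GMP3, against 4.24, 9.92 and 8.79 CPM in Mki67-negative cells (log2 difference 0.84, SE 0.05, edgeR adjusted p = 1.54e-25). GMP1 was low in both groups, and within each library the Mki67-positive cells were higher. Hist1h4b (0.93), Hist3h2ba (0.93), Hist1h2af (0.85) and Hist1h3b (0.83) also rose, although Hist3h2ba did not rise in GMP3, where its log2 difference was -0.18. The call of Hist3h2ba was lost without GMP1 (log2 difference 0.46, adjusted p = 0.344) and without GMP2 (0.89, 0.0505), and that of Hist1h4b without GMP2 (0.93, 0.0711).

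Hist1h2bc was the member called lower in Mki67-positive cells. It had 38.7, 34.9 and 42.6 CPM in Mki67-positive cells of GMP1, GMP2 and GMP3, against 45.0, 40.1 and 49.7 CPM in Mki67-negative cells, and fell by 0.27 (SE 0.03, edgeR adjusted p = 3.96e-13, and 0.782 without the block). It was lower in 3 of 3 libraries, by less than the spread between libraries. Hist1h4i had 68.9, 56.4 and 58.0 CPM, against 65.5, 54.8 and 54.5 CPM in Mki67-negative cells, and did not pass (0.01, edgeR adjusted p = 0.726). Hist1h1c had 89.9, 85.6 and 92.9 CPM, against 69.1, 60.9 and 69.8 CPM, and rose by 0.38 (SE 0.02, edgeR adjusted p = 3.01e-24, and 0.201 without the block). In CMP, Hist1h2bc had 64.40 CPM in Mki67-positive cells and 64.03 CPM in Mki67-negative cells, and in LMPP 29.9985 CPM and 23.3 CPM.

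**Figure D3:**
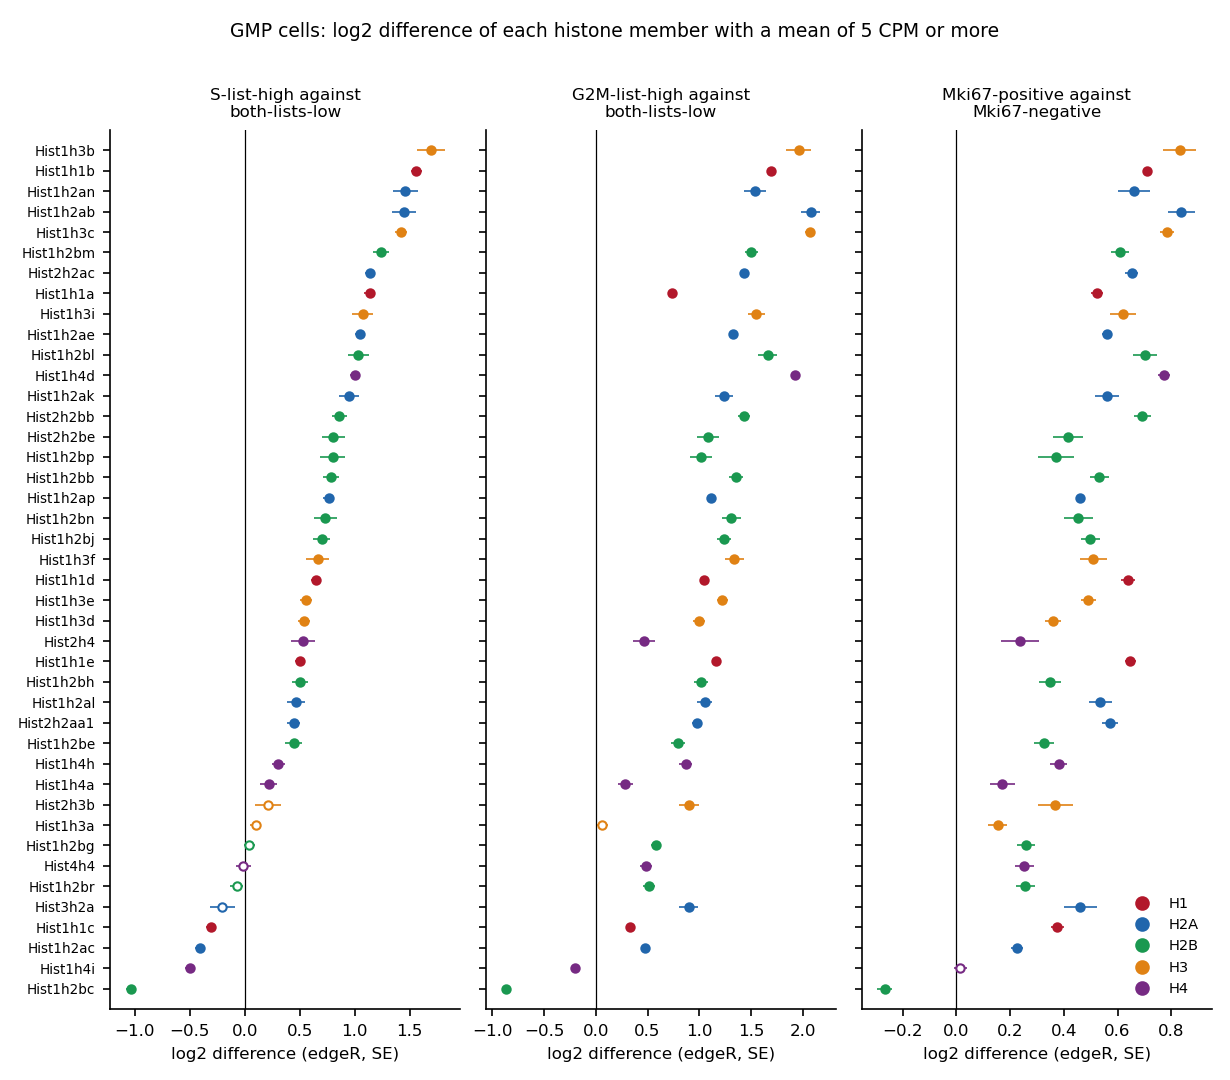
Log2 difference with its SE of the 42 members with a mean of 5 CPM or more, coloured by histone class, in S-list-high and G2M-list-high against both-lists-low GMP cells and in Mki67-positive against Mki67-negative GMP cells (1 panel each); filled points passed edgeR's test at 0.05 and open points did not. Hist1h2bc lay lowest in all 3 panels (-1.04, -0.87 and -0.27).

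Members grouped by their annotated 3′ ends had different medians. The 22 members with 100 or more bases after the stem-loop held 36.5% of histone CPM and had a median log2 difference of 0.47 in S-list-high cells and 0.90 in G2M-list-high cells. The 20 members with fewer than 100 bases after it had medians of 0.76 and 1.30, and the 22 with no match had 0.90 and 1.31. Of the 4 genes that were lower in S-list-high cells, Hist1h4i, Hist1h2ac and Hist1h1c have 330 or more annotated bases after the stem-loop, and Hist1h2bc has 2 exons and no match. Most members with such ends went the other way. Of the 20 tested with 100 or more bases after the stem-loop, 12 were higher (17.0% of all genes) and 3 lower (15.1%). These medians describe the members tested (20, 19 and 18 in S-list-high cells) and no test was made of them.

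Across the sorted populations, most called histone genes were higher in GMP than in CMP. edgeR on the library sums with TMM scaling called 38 of 64 members higher (13.8% of all genes) and 2 lower (19.1% of all genes), and 24 did not pass. The median log2 difference of the members was 0.86, beside -0.04 over all genes. CMP had 1 library, so its spread is assumed to equal that of the GMP libraries. With total UMI scaling all genes shifted to a median of -0.35, and 20 members were higher (7.33% of all genes) and 4 lower (30.4% of all genes).

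By class, 1 H1 gene was higher and 1 lower of 6, 9 of 18 H2A genes were higher, 12 of 17 H2B genes were higher and 1 lower, and 9 of 11 H3 genes and 7 of 12 H4 genes were higher. The largest rises were in Hist1h4k (1.86, SE 0.41, edgeR adjusted p = 0.0102), Hist1h2bm (1.46), Hist1h2bh (1.45), Hist1h3c (1.45) and Hist1h2bk (1.36). Hist1h1b rose by 1.19 (SE 0.22, edgeR adjusted p = 0.00468). Hist1h2ap rose by 0.73 (edgeR adjusted p = 0.0258), but not with total UMI scaling (0.42, adjusted p = 0.139). Hist1h1c fell by 0.53 (SE 0.13, edgeR adjusted p = 0.0139). That call was lost without GMP2 (-0.45, adjusted p = 0.165) and without GMP3 (-0.50, adjusted p = 0.0590). Hist3h2ba fell by 1.24 (edgeR adjusted p = 0.0130, and 0.0537 with DESeq2). Hist1h2bc did not pass (-0.31, SE 0.15, edgeR adjusted p = 0.143), but was lower with total UMI scaling (-0.62, adjusted p = 0.0139). Hist1h1e (0.36), Hist1h1a (0.33) and Hist1h4d (0.89, edgeR adjusted p = 0.0595) did not pass.

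Against LMPP, whether more members were called higher or lower in GMP depended on the scaling. Under both scalings the median of the members lay above that of all genes. With TMM, edgeR called 34 members higher (26.0% of all genes) and 1 lower (31.6% of all genes), with a median log2 difference of 0.67 beside -0.10 over all genes. With total UMIs it called 6 higher (11.0% of all genes) and 13 lower (52.0% of all genes), with a median of 0.05 beside -0.72 over all genes. The summed CPM of H1 and H2A genes given above, which use total UMIs, were higher in LMPP. Among the genes higher under both scalings, Hist1h4i rose by 1.49 (SE 0.18, edgeR adjusted p = 0.000315) and by 0.87 with total UMIs. Hist1h2bc rose by 1.25 (SE 0.16, edgeR adjusted p = 0.000405) and by 0.63 with total UMIs.

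With TMM, 2 H1 genes, 7 H2A genes, 12 H2B genes, 5 H3 genes and 8 H4 genes were higher, and the member called lower was in H2B. Hist2h3c2 (1.58, SE 0.27, edgeR adjusted p = 0.00152), Hist1h2bj (1.40) and Hist1h2ak (1.33) were among the largest rises. Hist1h1t was also called higher, but it rests on 0.0235 CPM in LMPP and no fold is given. That call was lost without GMP1 (edgeR adjusted p = 0.0587). Hist3h2ba fell by 2.67 (SE 0.26, edgeR adjusted p = 0.000107). Hist1h1b, the second most abundant member, rose by 0.74 with TMM (SE 0.21, edgeR adjusted p = 0.0178) but did not pass with total UMIs (0.12, adjusted p = 0.461). Other abundant genes did not pass with TMM and were lower with total UMIs, among them Hist1h2ap (0.08 with TMM, -0.54 with total UMIs, adjusted p = 0.0388), Hist1h2ae (-0.01 and -0.63) and Hist1h1e (0.14 and -0.49). Hist1h1c behaved likewise, with 0.08 and -0.54 (edgeR adjusted p = 0.628 and 0.00562).

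Because the populations differed in how many cells fell into each cycle group, the comparison was repeated within groups. These tests used TMM scaling and were not repeated with total UMIs, whereas the summed CPM beside them are scaled by total UMIs. How far the calls and log2 differences within groups depend on the scaling was thus not tested. In both-lists-low cells, where histone mRNA summed to 1879, 1950 and 1840 CPM in GMP, against 1471 CPM in CMP and 1378 CPM in LMPP, edgeR called 39 of 58 members higher than in CMP (18.5% of all genes) and 1 lower (22.3%). Against LMPP it called 45 higher (27.8% of all genes) and 1 lower (34.4%). In S-list-high cells histone mRNA summed to 2950, 3579 and 3475 CPM in GMP, against 1754 CPM in CMP and 2255 CPM in LMPP. There, 51 of 61 members were higher than in CMP (12.7% of all genes, with 15.7% lower) and 10 did not pass, and 51 were higher (25.4% of all genes) and 1 lower (29.0%) than in LMPP. In both groups every GMP library was above CMP and LMPP in summed histone mRNA. Cells high in both lists lie outside these groups. They made up 10.6% of LMPP and 5.29% of CMP, against 2.29%, 3.08% and 2.86% of GMP1, GMP2 and GMP3. Their median cell had 51 histone UMIs per 5000 in LMPP and 34 in CMP, against 32, 33 and 34 in GMP. The median S-list-high cell had only 6 in LMPP and 5 in CMP. The comparison in S-list-high cells thus does not cover the histone-richest replicating cells of LMPP and CMP. The test over both-lists-low cells had a median log2 difference of 0.97 against CMP and 1.31 against LMPP, and that over S-list-high cells 1.32 and 1.25. Over all genes these medians were -0.07 and -0.13 in both-lists-low cells and -0.01 and -0.05 in S-list-high cells.

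G2M-list-high cells, a group added after seeing the data, differed from this. Their histone mRNA summed to 3961, 4317 and 4363 CPM in GMP, against 4324 CPM in CMP and 7907 CPM in LMPP. Only 9 of 62 members were higher than in CMP (11.0% of all genes) and 3 lower (13.6%), and 7 were higher (23.0% of all genes) and 12 lower (26.4%) than in LMPP. Higher than in LMPP were Hist1h2ac (0.94), Hist1h4c (0.68), Hist1h2bg (0.57), Hist1h2ak (0.53), Hist1h4i (0.53), Hist1h2bc (0.51) and Hist1h2bj (0.49). Lower were Hist3h2ba (-2.97), Hist1h3f (-1.13), Hist1h1d (-1.01), Hist2h3b (-0.92), Hist1h2af (-0.91), Hist1h2ae (-0.88), Hist1h1a (-0.82), Hist1h2ap (-0.77), Hist1h2ad (-0.71), Hist4h4 (-0.57), Hist1h1e (-0.41) and Hist1h2bb (-0.40). The shares of members called were near or below the background. The median cell of this group had 21, 23 and 23 histone UMIs per 5000 in GMP, against 21 in CMP and 46 in LMPP.

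The size of single-gene differences also varied by group. Hist1h1b was higher in GMP than in CMP by 2.12 on the log2 scale in both-lists-low cells (SE 0.28) and by 1.67 in S-list-high cells, and did not pass in G2M-list-high cells (0.43, SE 0.19, edgeR adjusted p = 0.140). Against LMPP its differences were 2.47 in both-lists-low cells and 1.73 in S-list-high cells, and -0.18 without passing in G2M-list-high cells (edgeR adjusted p = 0.439). Hist1h3c was higher in GMP than in CMP by 3.21 in both-lists-low and 2.22 in S-list-high cells, and than in LMPP by 2.93 and 2.10. In both-lists-low cells Hist1h3c had 15.9, 25.8 and 17.5 CPM in GMP, against 2.77 CPM in CMP and 4.01 CPM in LMPP. Hist1h2ap had 1167, 1113 and 1540 CPM in G2M-list-high GMP cells, against 1403 CPM in CMP and 2996 CPM in LMPP. Its log2 difference between GMP and LMPP was 1.28 in both-lists-low cells, 0.82 in S-list-high cells and -0.77 in G2M-list-high cells (edgeR adjusted p = 0.0108 in G2M-list-high cells).

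Hist1h2bc in both-lists-low cells had 57.4, 58.0 and 69.8 CPM in GMP, against 94.4 CPM in CMP and 30.6 CPM in LMPP. In S-list-high cells it had 30.6, 29.8 and 35.2 CPM in GMP, against 28.1 CPM in CMP and 13.5 CPM in LMPP. In G2M-list-high cells it had 36.3, 31.1 and 38.2 CPM in GMP, against 61.1 CPM in CMP and 34.1 CPM in LMPP. Both-lists-low cells were highest in the GMP libraries and in CMP, and G2M-list-high cells in LMPP. Against LMPP its log2 differences were 1.65, 1.75 and 0.51 in the both-lists-low, S-list-high and G2M-list-high groups. Against CMP they were -0.23 (edgeR adjusted p = 0.236), 0.42 (0.0716) and -0.54 (0.0408). Hist1h1c had 76.9, 65.1 and 79.2 CPM in both-lists-low GMP cells, against 179 CPM in CMP and 111 CPM in LMPP, a log2 difference of -0.89 against CMP (edgeR adjusted p = 0.000835). In S-list-high cells Hist1h1c differed by 0.10 from CMP (edgeR adjusted p = 0.651). Hist1h4i had 73.2, 61.0 and 63.8 CPM in both-lists-low GMP cells, against 56.4 CPM in CMP and 17.0 CPM in LMPP, and its log2 differences against LMPP were 2.61, 1.71 and 0.53 in the 3 groups.

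**Figure D4:**
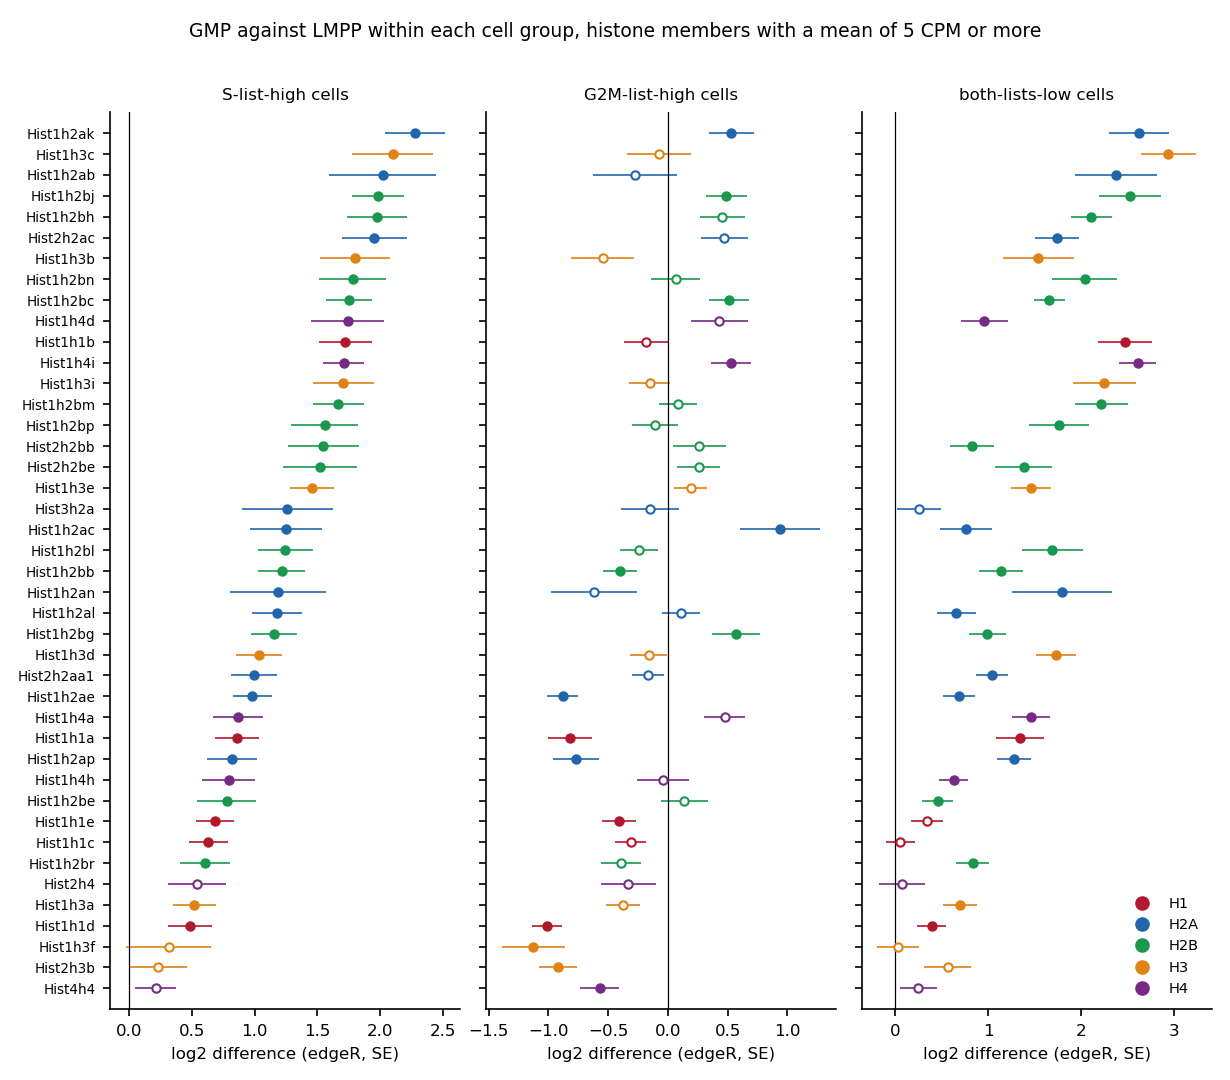
Log2 difference with its SE between GMP and LMPP (TMM scaling) of the 42 members with a mean of 5 CPM or more, in S-list-high, G2M-list-high and both-lists-low cells (1 panel each), coloured by histone class; filled points passed edgeR's test at 0.05 and open points did not. Over all members tested the medians were 1.25 in S-list-high, -0.093 in G2M-list-high and 1.31 in both-lists-low cells.

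CMP and LMPP, with 1 library each, were compared by size without a test, at 2-fold or more after TMM scaling. Of 60 members compared, 1 was higher in CMP (5.88% of all genes) and 4 were lower (12.9% of all genes), and the median log2 ratio was -0.32 beside 0.02 over all genes. Hist1h2bc was the higher one, with a ratio of 2.96 (95% Poisson interval 2.82 to 3.1, counting error only), and 2.38 without TMM. The lower ones were Hist1h3f (0.355), Hist3h2ba (0.369), Hist3h2bb-ps (0.432) and Hist1h3b (0.491). Both shares lay below the background. Hist1h4i had a ratio of 1.76 and Hist1h1c of 1.52. LMPP cells that were Mki67-positive held 6502 CPM of histone mRNA, against 1737 CPM in Mki67-negative LMPP cells, and in CMP these values were 3991 and 1615 CPM.

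Within GMP, cells were clustered on a random part of their UMIs with all histone and cycle-list genes left out, and the other part was tested. From marker genes, 7 classes were named. Of these, 5 had at least 100 cells in every GMP library and were tested, whereas a megakaryocyte-like class of 142 cells and a dendritic cell-like class of 34 cells were not. A share of 49.9%, 44.5% and 42.6% of all cells in GMP1, GMP2 and GMP3 stayed unnamed. Histone mRNA summed to 3181, 4170 and 3959 CPM in the monocyte-like class, against 3006, 3363 and 3194 CPM in the other cells of GMP1, GMP2 and GMP3. In the granulo-monocytic-like class (named from raised Elane, Prss57 and Ms4a3) it summed to 2804, 2865 and 2551 CPM, against 3090, 3697 and 3554 CPM. In the eosinophil-like class it summed to 2487, 3074 and 2144 CPM, against 3043, 3589 and 3488 CPM. The neutrophil-like class had 2823, 3411 and 3384 CPM, against 3058, 3600 and 3489 CPM, and the basophil and mast cell-like class 3349, 3668 and 3304 CPM, against 3029, 3581 and 3483 CPM. In the monocyte-like class each library was above its other cells and in the granulo-monocytic-like, eosinophil-like and neutrophil-like classes each was below. The monocyte-like class held 14.3%, 22.3% and 33.0% of cells in GMP1, GMP2 and GMP3. Its other cells included an unnamed cluster of 1811, 855 and 357 cells, led by genes such as the monocyte markers Ly86 and Ms4a6c. At Leiden resolution 0.5 the class held 2866, 2773 and 2695 cells, against 1207, 2015 and 2421 here. The other cells are thus not free of monocyte-marker cells. The same limit holds for the neutrophil-like class. Its other cells included an unnamed cluster of 861, 1291 and 1511 cells, led by genes such as the neutrophil markers Cebpe and Gfi1. At Leiden resolution 0.5 the neutrophil-like class held 2606, 2355 and 1520 cells, against 699, 679 and 628 here.

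The classes also differed in cycle groups. Both-lists-low cells were 12.6%, 8.72% and 13.8% of the monocyte-like class in GMP1, GMP2 and GMP3. They were 42.5%, 35.7% and 43.0% of the granulo-monocytic-like class, 40.1%, 30.9% and 51.2% of the basophil and mast cell-like class and 30.8%, 19.9% and 22.3% of the neutrophil-like class. In the eosinophil-like class they were 28.9%, 19.3% and 33.3%. The part of these shares in the class differences was tested only by repeating the comparison in S-list-high cells. Depth differed as well, with median UMIs per cell of 14871 to 16787 in the monocyte-like class and 3473.5 to 4777 in the eosinophil-like class. Cells under 5000 UMIs had no cycle group. In the basophil and mast cell-like class these were 274 of 558, 261 of 701 and 143 of 356 cells. In the eosinophil-like class they were 61 of 106, 87 of 170 and 69 of 120, against only 13, 8 and 6 cells in the monocyte-like class.

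In the monocyte-like class edgeR called 20 of 59 members higher (12.6% of all genes, with 12.7% lower) and 39 did not pass. That count was 5 with DESeq2 and the block, 10 in S-list-high cells, 38 at Leiden resolutions of 0.5 and of 2, and 32, 5 and 7 without GMP1, GMP2 and GMP3. The share over all genes is not given for these settings, so the changes of the count cannot be set against all genes. Hist1h1b had 562, 773 and 536 CPM in the class, against 447, 532 and 346 CPM in the other cells, and rose by 0.45 (SE 0.07, edgeR adjusted p = 7.74e-05). Hist1h2af (0.50, but 0.48 with edgeR adjusted p = 0.0806 without GMP2), Hist1h3b (0.45) and Hist1h4d (0.43) rose as well. Hist1h1c (0.05) and Hist1h2bc (-0.02) did not pass. Without the library block 0 members were called higher by edgeR, with 5 at an unadjusted p under 0.05.

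In the granulo-monocytic-like class 5 of 58 members were higher (17.9% of all genes) and 13 lower (17.3% of all genes), and in the neutrophil-like class 13 of 58 were higher (18.5%) and 6 lower (17.7%), shares near or below the background. Both splits moved with scaling: with total UMIs 1 member was higher (6.78% of all genes) and 37 lower (43.8% of all genes) in the granulo-monocytic-like class, and 1 was higher (7.56% of all genes) and 19 lower (42.5% of all genes) in the neutrophil-like class. On that scale the median log2 difference of all genes was -0.26 in the granulo-monocytic-like class and -0.27 in the neutrophil-like class. Without the block edgeR called 0 and 1 in the granulo-monocytic-like class, with 2 higher at an unadjusted p under 0.05, where DESeq2 with the block called 2 and 6. It called 0 and 0 in the neutrophil-like class, with 7 higher and 3 lower at an unadjusted p under 0.05, where DESeq2 with the block called 11 and 5. Hist1h2ap had 938, 1006 and 1435 CPM in the neutrophil-like class, against 902, 935 and 1244 CPM in the other cells, and rose by 0.36 (edgeR adjusted p = 2.74e-27) and by 0.13 with total UMIs (4.89e-07). Hist2h2ab (0.61) and Hist1h3g (0.53) rose and Hist3h2a (-0.53) fell there with TMM. These calls were lost for Hist2h2ab without GMP3 (0.39, edgeR adjusted p = 0.246), for Hist1h3g without GMP1 (0.39, 0.167) or GMP2 (0.50, 0.0785), and for Hist3h2a without GMP1 (-0.33, 0.211). In the granulo-monocytic-like class Hist1h2ag (0.43), Hist1h2bk (0.39) and Hist1h4i (0.36) rose, and Hist1h2ab (-0.67) and Hist1h3g (-0.52) fell. The call of Hist1h2ag was lost whichever library was left out (0.36 to 0.50). That of Hist1h2bk was lost without GMP1 (0.22, edgeR adjusted p = 0.479) or GMP2 (0.49, 0.0652), and that of Hist1h3g without GMP3 (-0.41, 0.0748).

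In the eosinophil-like class, with 106, 170 and 120 cells, 1 of 58 members was higher (7.74% of all genes) and 18 were lower (14.0% of all genes), or 1 higher (19.0% of all genes) and 11 lower (4.99% of all genes) with total UMIs. Hist1h1b had 290, 467 and 211 CPM in the class, against 470, 599 and 418 CPM in the other cells, and fell by 1.02. Hist1h2an (-1.71) and Hist1h3i (-1.66) fell most. Hist1h2an was at -2.82 without GMP2, and its call was lost without GMP1 (-1.47, edgeR adjusted p = 0.231) and without GMP3 (-1.46, edgeR adjusted p = 0.121). The call of Hist1h3i was lost without GMP2 (-1.56, edgeR adjusted p = 0.0590). In the basophil and mast cell-like class 9 of 61 members were higher (21.8% of all genes) and 15 lower (23.2% of all genes), shares near or below the background, or 11 higher (31.0% of all genes) and 7 lower (13.7% of all genes) with total UMIs, and 3 and 6 without the block. Hist3h2ba (1.71), Hist2h4 (0.80) and Hist3h2a (0.65) were among the higher ones, although that of Hist3h2ba was lost with DESeq2 (adjusted p = 0.140) and without GMP1 (0.333) or GMP2 (0.120). Hist1h2bm (-0.70) and Hist1h3c (-0.65) were lower. Hist1h4k had no UMI in this class in any library, against 0.669, 0.799 and 0.642 CPM in the other cells. It is a rare transcript, with 368 UMIs over all 5 libraries. Its call as lower was lost without GMP1 (edgeR adjusted p = 0.0793) or GMP2 (0.134).

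Hist1h1c, the H1.2 gene, was higher in some classes and lower in others. It had 223, 146 and 204 CPM in the basophil and mast cell-like class, against 74.9, 69.3 and 80.5 CPM in the other cells of GMP1, GMP2 and GMP3, and rose by 1.10 (SE 0.07, edgeR adjusted p = 5.05e-49). The groups did not overlap, and the difference was 0.56 in S-list-high cells (edgeR adjusted p = 0.0081). It had 145, 117 and 159 CPM in the eosinophil-like class, against 79.4, 72.0 and 82.6 CPM, and rose by 0.43 (edgeR adjusted p = 0.0101, but 0.166 without GMP3 and 0.0517 without the low-count filter). Hist1h1c fell in the granulo-monocytic-like class, with 53.4, 46.2 and 53.0 CPM, against 85.5, 76.5 and 85.5 CPM (-0.48, SE 0.05, edgeR adjusted p = 1.93e-08). It also fell in the neutrophil-like class, with 48.1, 59.5 and 60.4 CPM, against 82.6, 73.5 and 85.3 CPM (-0.27, edgeR adjusted p = 4.11e-05, and 0.104 without the block). Each library showed the direction of its class.

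Hist1h2bc was less even across settings. It had 27.6, 28.7 and 31.7 CPM in the neutrophil-like class, against 44.7, 39.8 and 48.4 CPM in the other cells, and fell by 0.36 (SE 0.07, edgeR adjusted p = 3.85e-05). That call was lost without the block (adjusted p = 0.0584), and the sign turned at Leiden resolution 0.5 (0.02) and in S-list-high cells (0.10). In the basophil and mast cell-like class it had 55.4, 57.0 and 72.1 CPM, against 42.9, 38.1 and 46.4 CPM, and rose by 0.31 (edgeR adjusted p = 0.00445), yet in S-list-high cells of the class it was lower (-1.03, adjusted p = 0.0120). The call was also lost without GMP2 (0.25, adjusted p = 0.130), without GMP3 (0.27, adjusted p = 0.0603), without the block (0.104) and with DESeq2 (0.0791). In the granulo-monocytic-like class it rose by 0.25 (edgeR adjusted p = 0.00106), but not with total UMIs (0.032, adjusted p = 0.671) or without the block (0.194).

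**Figure D5:**
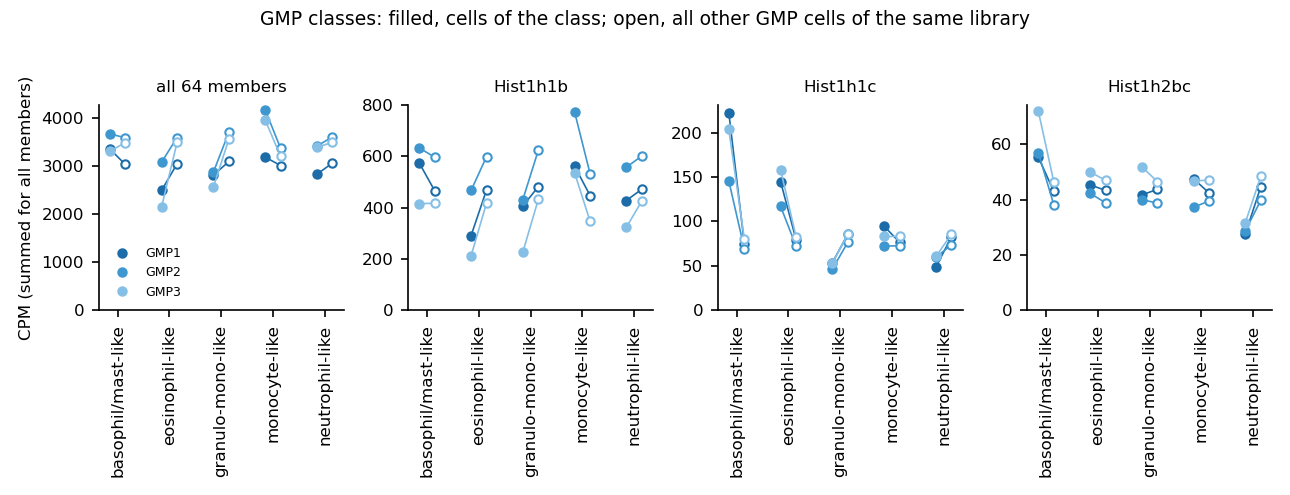
CPM in the cells of each of the 5 classes tested (filled) and in the other GMP cells of the same library (open), joined by a line, for all members summed and for Hist1h1b, Hist1h1c and Hist1h2bc. Hist1h1c lay at 146 to 223 CPM in the basophil and mast cell-like class and at 46.2 to 53.4 CPM in the granulo-monocytic-like class.

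The machinery around histone mRNA was described from 3 further gene lists. Of 20 genes for transcription, processing and decay of histone mRNA, 13 of 19 tested were higher and 2 lower in S-list-high against both-lists-low cells. Cyclin E genes, which drive entry into S phase, led with Ccne1 (0.99) and Ccne2 (0.94), and Slbp, encoding the stem-loop binding protein, rose by 0.41 and Srrt by 0.29. In G2M-list-high cells 6 were higher and 5 lower, with Ccne2 (-1.90) and Slbp (-0.38) lower. Zfp473, which encodes a protein of histone mRNA 3′ end processing, was higher (2.36, SE 0.40). It is a rare transcript, with 0.414, 0.492 and 0.585 CPM in all cells of GMP1, GMP2 and GMP3. In Mki67-positive cells 7 were higher and 7 lower. The backgrounds are those given above for each comparison.

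Of 20 histone chaperone and assembly genes, 16 were higher and 1 lower in S-list-high cells, 5 and 7 in G2M-list-high cells, and 5 and 4 in Mki67-positive cells. Asf1b, an H3-H4 chaperone, rose by 0.97 in S-list-high cells and by 0.83 in G2M-list-high cells. Tonsl (0.80), the FACT subunit gene Ssrp1 (0.30) and Nap1l1 (0.16) rose in S-list-high cells, and Chaf1b, of the CAF-1 chaperone that acts behind replication forks, fell in G2M-list-high cells (-0.81). Of 11 replacement histone genes, whose products are made outside S phase as well, 3 were higher and 4 lower in S-list-high cells, 8 and 2 in G2M-list-high cells, and 7 and 1 in Mki67-positive cells. Cenpa, the centromeric H3 variant, fell in S-list-high cells (-0.77) and rose in G2M-list-high cells (1.81). H2afx rose in G2M-list-high cells (1.5). H2afy2 (0.61) and H2afy (0.23) rose in S-list-high cells.

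The same lists were read between the sorted populations. Of all genes, 13.8% were higher and 19.1% lower in GMP than in CMP with TMM, and 7.33% and 30.4% with total UMIs. Against LMPP these shares were 26.0% and 31.6% with TMM, and 11.0% and 52.0% with total UMIs. The list counts against CMP with TMM were near or below these shares. With total UMIs the counts lower than in LMPP were not above the share of all genes. Against CMP, 3 processing genes were higher and 1 lower in GMP, among them Ccne2 (0.98) and Ccne1 (0.84). Of the chaperone genes 2 were higher and 2 lower, with Nasp (0.53) and Chaf1b (-0.48). With total UMIs Nasp did not pass (0.22, edgeR adjusted p = 0.189) and 7 were lower. Of the replacement histones 2 were higher and 2 lower, with H1fx (-1.33) and H1f0 (-1.07), both linker histone genes, lower. Against LMPP, 9 processing genes were higher with TMM, led by E2f1 (1.01) and Lsm11 (0.93), whereas with total UMIs 1 was higher and 10 lower. Of the chaperone genes 9 were higher and 1 lower with TMM (Nasp 1.06, Nap1l1 0.91), and 1 and 7 with total UMIs. Of the replacement histones 5 were higher and 1 lower with TMM and 1 and 5 with total UMIs, with H2afj at 2.02 with TMM and 1.40 with total UMIs and H2afx at 0.82 with TMM.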

How the data were processed

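The deposited files hold UMI counts per gene and barcode, per the file headers written by Cell Ranger 6.1.1, whereas the submitters' processing notes name Cell Ranger 3.1.0, Seurat 3.1.1 and mm10; gene identifiers match GENCODE M21. Barcodes with under 500 genes, under 1000 UMIs or over 10% mitochondrial UMIs were removed (387, 194 and 184 for GMP1 to GMP3, 77 for CMP, 83 for LMPP), then the barcodes with the highest Scrublet doublet scores at 0.8% per 1000 barcodes (694, 783 and 503; 432; 522). Free RNA was not separated from cell RNA. Median UMIs per kept cell were 10846, 12844.5 and 15187 in GMP, 10175.5 in CMP and 9434 in LMPP. Cells under 5000 UMIs (904, 542 and 341 in GMP, 795 in CMP, 1053 in LMPP) entered no cycle group; groups were set on thinned UMIs and summed unthinned. The S cut was 22 UMIs and its median 17, the G2M cut 32 and its median 20.

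GMP cells were clustered on 2000 variable genes, 30 components and 20 neighbours (Leiden resolution 1). A cluster was named when at least 3 markers of a class were raised 1.5-fold at 20 CPM or more, with 5 CPM added, and a marker led it or most were raised. Classes needed 100 cells in each library. Sums were tested in edgeR 4.0.16 (R 4.3.3, limma 3.58.1; TMM, filterByExpr, Benjamini-Hochberg adjustment over all genes tested) and in DESeq2 1.42.0 as an alternative; the library comparisons have 2 residual degrees of freedom. The scripts were tested on simulated data. Other tools were Python 3.11.15, numpy 2.4.6, scipy 1.17.1, pandas 2.3.3, scanpy 1.11.5 and leidenalg 0.10.2. In the comparisons within GMP both sums of a library come from the same sample, so library was a block. Deviations of paired sums correlated at 0.816 to 0.971 over genes.

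The members and lists were chosen with earlier results of these data known. Named were every member with a mean of 5 CPM or more (42), Hist1h2bc and Hist1h1c, up to 5 with the largest change in each direction, up to 3 of the highest that did not pass, and up to 4 genes of each further list. Hist1h4i and Hist1h2ac in some groups, and a few further values, were added after their values were seen. The alternatives tried were other scalings, DESeq2, no low-count filter, all barcodes, doublets kept, other thinning, other clustering, cycle-matched cells and each GMP replicate left out.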

Additional observations from a re-analysis of the deposited data

Results flagged for a closer look

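For some histone genes the difference between cell groups pointed one way in all 3 GMP libraries and the other way in CMP or LMPP, where the counting interval of the single library excluded no change. Values are log2 differences of CPM for GMP1, GMP2 and GMP3, and then for the single library. None of these differences between populations was tested, and 1 library of CMP or LMPP gives no spread.

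Hist1h2bc in Mki67-positive against Mki67-negative cells had -0.22, -0.20 and -0.22 in GMP and 0.36 in LMPP. In G2M-list-high against both-lists-low cells it had -0.66, -0.90 and -0.87 in GMP and 0.16 in LMPP. Hist1h4i showed the widest gap: in G2M-list-high cells it had -0.15, -0.15 and -0.14 in GMP and 1.75 in LMPP, and in S-list-high cells -0.55, -0.30 and -0.39 in GMP and 0.34 in LMPP.

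In CMP 5 genes were lower in S-list-high than in both-lists-low cells while they were higher in the GMP libraries. Hist1h1e had 0.44, 0.64 and 0.68 in GMP and -0.33 in CMP, and Hist1h1d had 0.61, 0.87 and 0.71 in GMP and -0.29 in CMP. Hist1h4h had 0.09, 0.50 and 0.51 in GMP and -0.27 in CMP, Hist1h2bg 0.14, 0.03 and 0.21 in GMP and -0.34 in CMP, and Hist1h2al 0.40, 0.65 and 0.62 in GMP and -0.41 in CMP. Hist1h1c in G2M-list-high cells had 0.31, 0.51 and 0.34 in GMP and -0.077 in CMP.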

How the results depend on the processing

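Counts below are members higher, then lower. Shares over all genes are given above for total UMIs and for the library comparisons within cycle groups. They are not given for the other settings, where a moved count cannot be set against all genes. Of 200 recomputed counts, 140 stayed within 1.5 times the reported one and 60 did not. Of 786 recomputed values of single members, 628 kept direction and side of the threshold, 97 lost the call, 24 gained one and 37 changed sign. Causes were not tested. The smallest class tested, of eosinophil-like cells, had 106 to 170 cells per library.

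For GMP against CMP, total UMIs gave 20 and 4, DESeq2 1 lower, and S-list-high cells 0 lower in edgeR, also 0 at an unadjusted p under 0.05 (DESeq2 was not run there). Both-lists-low cells gave 1 lower, G2M-list-high cells 9 higher and 3 lower, and leaving out a GMP replicate 37 to 49 and 1 to 3. Signs changed in S-list-high cells for Hist3h2ba (1.32), Hist1h1c (0.10) and Hist1h2bc (0.42), and in G2M-list-high cells for Hist1h1a (-0.18). For GMP against LMPP, total UMIs gave 6 and 13, G2M-list-high cells 7 and 12, and leaving out a GMP replicate 24 to 42 higher. Signs changed for Hist1h2ap in G2M-list-high cells (-0.77), with total UMIs (-0.54) and with a replicate left out (-0.043 to 0.15). Hist1h2ae changed with DESeq2 (0.028), DESeq2 size factors (0.028), in S-list-high cells (0.98), in both-lists-low cells (0.69) and with a replicate left out (-0.058 to 0.039). Hist1h1e changed in G2M-list-high cells (-0.41) and with total UMIs (-0.49), as did Hist1h1c (-0.31 and -0.54).

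Without the replicate block the Mki67 comparison gave 4 and 0, the S-list comparison 18 and 2, and the G2M-list comparison 43 and 1. Sums of thinned UMIs also gave 1 lower in the G2M-list comparison. Hist1h4i in the Mki67 comparison changed sign on thinning to 2000 UMIs (-0.073) and with a replicate left out (-0.0057 to 0.033), as did Hist1h2ao with a replicate left out (-0.092 to 0.17). In the S-list comparison Hist1h2bg ran from -0.012 to 0.083 with a replicate left out, and Hist4h4 from -0.091 to 0.11, with 0.084 from sums of thinned UMIs and 0.073 with total UMIs.

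In the basophil and mast cell-like class, DESeq2 gave 2 higher, no low-count filter 3 higher, no replicate block 3 and 6, S-list-high cells 1 higher, a replicate left out 4 to 5 higher, and total UMIs 7 lower; Hist1h2bc was -1.03 in S-list-high cells. In the eosinophil-like class, no low-count filter gave 0 higher (1 at an unadjusted p under 0.05, and 1 with DESeq2), a replicate left out 0 to 1, and DESeq2 and total UMIs 11 lower each; Hist1h2bc was 0.10 with total UMIs. In the granulo-monocytic-like class, DESeq2 gave 2 and 6, no low-count filter 2 higher, no replicate block 0 and 1, total UMIs 1 and 37, S-list-high cells 1 lower, and a replicate left out 2 to 6 higher. In the monocyte-like class, DESeq2 gave 5 higher, Leiden resolutions 0.5 and 2 gave 38 each, no replicate block 0, S-list-high cells 10, and a replicate left out 5 to 32. There, 1 member was lower at Leiden resolution 0.5 and with no low-count filter, and 0 to 1 with a replicate left out. Hist1h2bc was 0.15 and 0.11 at Leiden resolutions 0.5 and 2, 0.33 in S-list-high cells, 0.020 with total UMIs and -0.044 to 0.012 with a replicate left out. Hist1h1c was -0.10 and -0.058 at those resolutions and -0.0052 to 0.087 with a replicate left out. In the neutrophil-like class, Leiden resolution 0.5 gave 8 and 12, no replicate block 0 and 0, S-list-high cells 6 and 1, and total UMIs 1 and 19. There Hist2h2ab was -0.052 in S-list-high cells, Hist1h3g -0.031 at Leiden resolution 0.5, and Hist1h2bc 0.021 at Leiden resolution 0.5 and 0.10 in S-list-high cells. S-list-high cells of the eosinophil-like class were too few for a test, and the granulo-monocytic-like class was not tested at the other Leiden resolutions, since no cluster was so named at 0.5 and at 2 it held 59 cells in GMP1.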
